A study of Mus musculus with 8 samples.

Results

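The 10 genes described here were chosen by symbol: the C1q chain genes C1qa, C1qb and C1qc, the protease genes C1ra and C1s1, the C1 inhibitor gene Serping1, C3, Cfb (factor B), Cfp (properdin) and Cd55. All 10 were among the 14971 genes with a symbol in the count table, and all 10 were among the 14184 that passed the filter on low counts. RNA was measured in 2 populations of colonic lamina propria cells from male mice. Both were sorted as macrophages carrying CD64 and MHC class II, 1 with the G protein-coupled receptor GPR35 on its surface (GPR35-positive) and 1 without it (GPR35-negative), with 4 libraries each. Every animal gave 1 library of each kind, so replicate numbers pair the libraries by animal. The sources used here give neither strain nor age, and name no treatment. Values are CPM, counts scaled to a common library total, after TMM scaling, which sets libraries level on the bulk of genes. Fold changes are GPR35-positive over GPR35-negative, with adjusted p from edgeR's quasi-likelihood test over all tested genes and a threshold of 0.05.

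Complement is a set of plasma and tissue proteins that mark microbes, immune complexes and dying cells for removal. In the classical pathway, C1q binds the target and activates the proteases C1r and C1s, which cleave C4 and C2 and so lead to cleavage of C3. C1q is unusual among complement proteins in being made mainly by macrophages and immature dendritic cells, whereas fibroblasts and other stromal cells make much of the C1r, C1s and C1 inhibitor outside the liver. The alternative pathway runs on C3, factor B and properdin, and CD55 on cell surfaces breaks up the convertases of both pathways.

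Total counts were 33.8 to 48.6 M reads in GPR35-positive libraries and 15.997 to 30.1 M reads in GPR35-negative libraries. Gpr35 itself was at 73.3 ± 14.9 CPM in GPR35-positive and 2.97 ± 1.46 CPM in GPR35-negative libraries (SD, n = 4 each). Csf1r, the receptor for the macrophage growth factor, was at 4276 ± 322 CPM in GPR35-positive and 1133 ± 985 CPM in GPR35-negative libraries. Of 20 macrophage markers, none of them a complement gene, 18 were higher in GPR35-positive libraries and 0 lower, and their summed level was 37952.5 to 45174 CPM there, against 4177 to 18671 CPM in GPR35-negative libraries. All 15 fibroblast and pericyte markers were lower in GPR35-positive libraries, with a summed level of 214 to 1332 CPM against 4596 to 10141 CPM. All 11 plasma and B cell markers were also lower, and Jchain, the joining chain of secreted antibodies, took 0.0589% to 0.197% of counts in GPR35-positive and 7.37% to 14.1% in GPR35-negative libraries. No marker of these 3 lists was at 0 in any library. Of the markers of T and innate lymphoid cells 7 of 8 were lower (51.3 to 61.3 CPM summed in GPR35-positive, 322 to 572 CPM in GPR35-negative libraries), of endothelium 5 of 7 (27.8 to 199 against 143 to 1586 CPM) and of epithelium 3 of 11 (76.0 to 134 against 199 to 582 CPM). Of the dendritic cell markers 1 of 7 was higher, and of the granulocyte and mast cell markers 1 was higher and 2 lower of 8. The part of these markers' cells in the results was not tested. In such bulk samples fewer cells of a type and less RNA per cell cannot be told apart.

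Of the 10 complement genes, 4 passed the threshold as higher in the GPR35-positive population, 4 as lower, and 2 did not pass. Over all tested genes 38% passed in either direction, 18.5% as higher and 19.5% as lower. The C1q chains and properdin were the 4 higher genes, and C1ra, C1s1, Serping1 and Cd55 the 4 lower ones. The same 8 had no overlap in CPM between the populations, 4 with the GPR35-positive libraries above and 4 with them below. Over all tested genes 42.1% had no overlap, 21.5% with the GPR35-positive libraries above and 20.6% with them below. The median log2 fold change over the 10 genes was 0.87, and -0.05 over all tested genes.

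**Figure D1:**
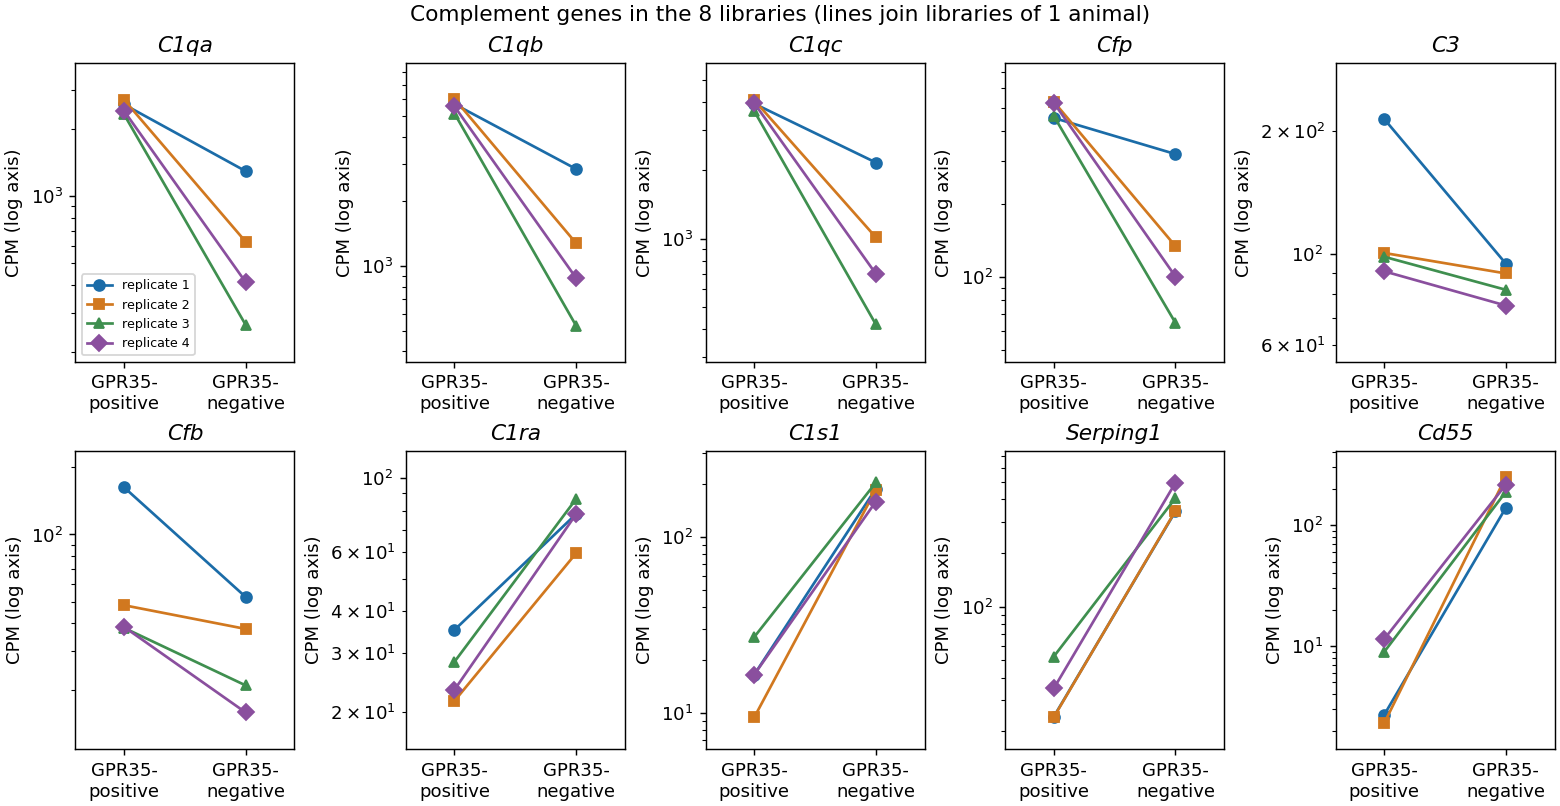
CPM of the 10 complement genes in each library on log axes, GPR35-positive at the left and GPR35-negative at the right of each panel, with lines joining libraries of 1 animal. The C1q chains and Cfp lie higher in all 4 GPR35-positive libraries, C1ra, C1s1, Serping1 and Cd55 lower, and C3 and Cfb have 1 GPR35-positive library far above the others. Scaled to macrophage markers, the C1q chains and Cfp are at -0.28 to 0.09, none past the threshold. C3 is then at -1.80 and past it, and Cfb at -0.92 and not past it. Scaled to stromal markers, C1ra is at 2.20.

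C1qa, C1qb and C1qc encode the chains that combine into the C1q molecule. They lie side by side on the minus strand of chromosome 4 (GRCm38.p6), C1qb at 136880126 to 136886200, C1qc at 136889801 to 136892936 and C1qa at 136895916 to 136898844. C1qa was at 2578, 2707, 2327 and 2412 CPM in GPR35-positive replicates 1 to 4, against 1294, 624, 264 and 411 CPM in GPR35-negative replicates 1 to 4. The GPR35-positive values were close together, and the GPR35-negative ones spread widely below them with replicate 1 the highest. C1qb was at 5674, 6001, 5130.4 and 5535 CPM in GPR35-positive libraries, against 2829, 1276, 527 and 879 CPM in GPR35-negative libraries. C1qc was at 3933, 4076, 3646 and 3955 CPM in GPR35-positive libraries, against 2165, 1013, 419 and 699 CPM in GPR35-negative libraries. All 3 genes kept the same order of libraries in the GPR35-negative population, with replicate 3 the lowest.

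The log2 fold changes were 1.95 ± 0.44 for C1qa, 2.02 ± 0.46 for C1qb and 1.86 ± 0.44 for C1qc (SE; edgeR adjusted p = 0.0084, 0.00887 and 0.0109), and each gene was higher in 4 of 4 animals, but with scaling to the macrophage markers the values were -0.0019, 0.09 and -0.08. That scaling set the median of all genes at -2.46. Within animals the C1qa difference was 0.99 to 3.14 log2, least in replicate 1. The calls ended without replicate 2, at 1.92, 1.98 and 1.84 (edgeR adjusted p = 0.0524, 0.0551 and 0.0618), and without replicate 4, at 1.80, 1.86 and 1.698 (0.0552, 0.0603 and 0.0703). Without GPR35-negative replicate 1 the values were 2.54, 2.65 and 2.46.

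Per kilobase of gene length, the 3 chains were among the most abundant messages in the GPR35-positive cells. C1qb stood at 5259 ± 340 CPM per kilobase in GPR35-positive libraries, rank 9 of the 14184 tested genes, and at 1297 ± 956 in GPR35-negative libraries, rank 30. C1qc had rank 15 in GPR35-positive and 43 in GPR35-negative libraries, and C1qa rank 27 and 67. Together the chains took 1.06% to 1.13% of counts in GPR35-positive libraries and 0.139% to 0.684% in GPR35-negative libraries.

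The proportions of the chains varied far less than their level. C1qa made up 20.5 ± 0.42% of the per-kilobase sum of the 3 chains in GPR35-positive libraries and 20.8 ± 0.61% in GPR35-negative libraries (SD, n = 4 each). C1qb made up 46.3% to 47.0% in GPR35-positive and 43.6% to 45.0% in GPR35-negative libraries, and C1qc 32.2% to 33.5% and 34.7% to 35.5%. The ranges of C1qb and C1qc did not overlap, but the shift was small: C1qb relative to C1qa differed by 0.09 log2 (2-sided exact permutation p = 0.0286, the smallest possible, and 0.0667 adjusted over 7 pairs of genes chosen after the values were seen). C1qc relative to C1qa differed by -0.08 log2 (exact permutation p = 0.0857, adjusted 0.12).

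C1ra and C1s1 encode the proteases that C1q carries, C1r and C1s, and lie on chromosome 6 at 124512621 to 124523440 and 124530344 to 124542392. Both were lower in GPR35-positive cells, by unequal amounts. C1s1 was at 16.6, 9.47, 27.0 and 16.6 CPM in GPR35-positive replicates 1 to 4, against 188, 185, 203 and 159 CPM in GPR35-negative replicates 1 to 4. The populations were far apart, and GPR35-positive replicate 3 was the highest of its group. C1ra was at 35.2, 21.6, 28.3 and 23.3 CPM in GPR35-positive libraries, against 78.1, 59.7, 86.7 and 78.1 CPM in GPR35-negative libraries. The gap was narrower for C1ra, again without overlap. The log2 fold change was -3.40 ± 0.30 for C1s1 (edgeR adjusted p = 0.000116) and -1.48 ± 0.19 for C1ra (0.000681), each lower in 4 of 4 animals and past the threshold without any one animal or library, while scaling to the stromal markers, which set the median of all genes at 3.67, gave -0.02 for C1s1 and 2.20 for C1ra.

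The populations did not overlap in the ratio of the protease messages. Per kilobase, C1s1 was 0.596 ± 0.223 times C1ra in GPR35-positive libraries and 2.29 ± 0.418 times C1ra in GPR35-negative libraries (SD, n = 4 each). C1s1 relative to C1ra was lower by 1.99 log2 in the GPR35-positive cells, in 4 of 4 animals (exact permutation p = 0.0286, the smallest possible, adjusted 0.0667; exact sign-flip p within animals = 0.125, also the smallest possible). The sum of the C1q chains was 1152 to 3787 times C1s1 per kilobase in GPR35-positive libraries and 16.7 to 93.9 times in GPR35-negative libraries. Reads of C1ra and C1s1 may be divided with their tandem copies C1rb and C1s2, since 48.0% of the 50-base windows of the C1ra transcript and 24.3% of those of C1s1 also occur in the copy. The copies were also lower, with log2 fold changes of -1.46 ± 0.20 for C1rb and -3.24 ± 0.46 for C1s2 (edgeR adjusted p = 0.000918 and 0.00102), but 2.19 and 0.11 with stromal marker scaling. C1s1 also overlaps an antisense gene, and the libraries do not mark strand.

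**Figure D2:**
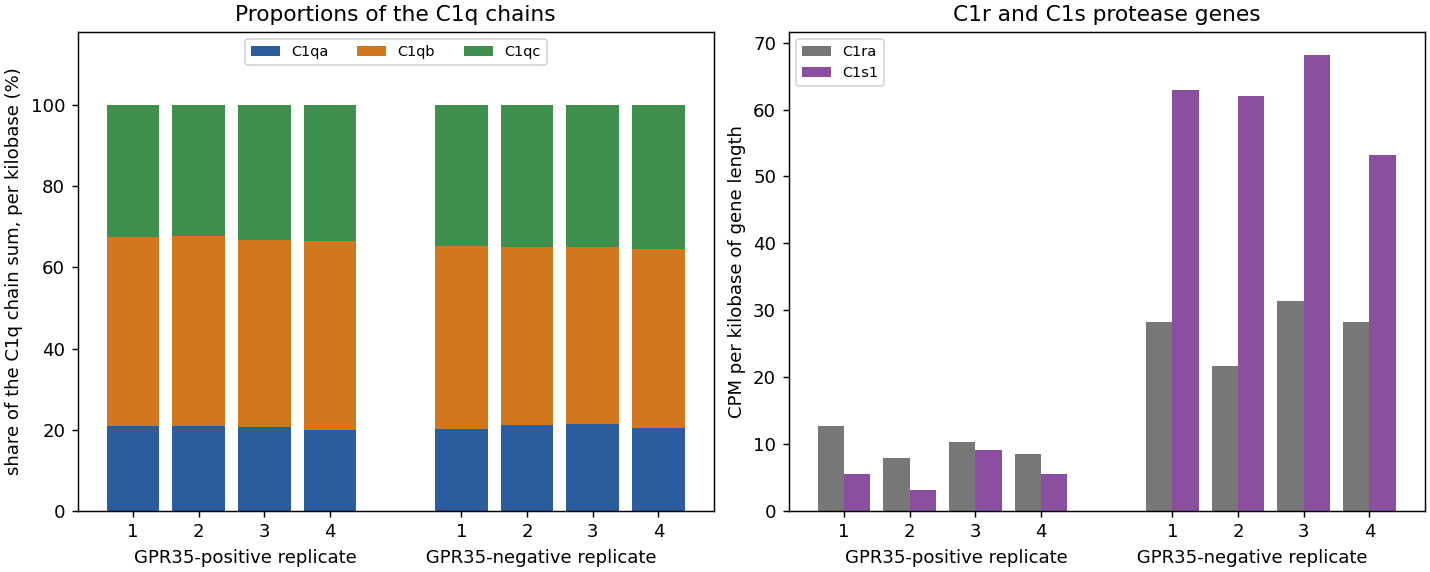
Left, share of C1qa, C1qb and C1qc in the per-kilobase sum of the 3 chains in each library. Right, CPM per kilobase of C1ra and C1s1 in each library: C1s1 lies below C1ra in all 4 GPR35-positive libraries and above it in all 4 GPR35-negative libraries.

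Promoter windows were found in RefSeq (GRCm38.p6) for 7 of the 10 genes, and none for C1qa, Cfb and Serping1. The 250 bases before a RefSeq transcript start of 4 genes of the C1 complex are shown because C1qb and C1qc were higher and C1ra and C1s1 lower in the same libraries. Capitals mark matches to GAGGAAGT, the core bound by PU.1, a factor of macrophages, or to AGGAAGT, a shorter core of its ETS family that lies inside it and was added after the sequences were seen. C1qb is read from chr4:136886201-136886450 (minus strand), C1qc from chr4:136892915-136893164 (minus strand), C1ra from chr6:124512371-124512620 (plus strand) and C1s1 from chr6:124542360-124542609 (minus strand). For C1qc and C1s1 that start lies inside the gene bounds given above, so the stretch shown runs into the gene, and C1s1 has another window that is not shown.
C1qb: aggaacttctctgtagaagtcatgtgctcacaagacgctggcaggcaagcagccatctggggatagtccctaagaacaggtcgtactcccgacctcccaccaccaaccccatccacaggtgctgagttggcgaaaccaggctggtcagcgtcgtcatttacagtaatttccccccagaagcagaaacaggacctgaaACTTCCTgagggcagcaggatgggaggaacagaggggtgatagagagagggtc
C1qc: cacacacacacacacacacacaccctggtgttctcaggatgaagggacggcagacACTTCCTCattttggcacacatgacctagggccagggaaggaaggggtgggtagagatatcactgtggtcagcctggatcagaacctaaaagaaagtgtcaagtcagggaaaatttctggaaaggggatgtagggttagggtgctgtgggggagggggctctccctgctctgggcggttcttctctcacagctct
C1ra: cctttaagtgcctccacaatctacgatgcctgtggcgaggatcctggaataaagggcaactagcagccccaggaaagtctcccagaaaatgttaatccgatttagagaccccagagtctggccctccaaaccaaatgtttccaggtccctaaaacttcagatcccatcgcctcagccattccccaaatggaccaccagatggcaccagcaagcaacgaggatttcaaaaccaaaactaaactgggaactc
C1s1: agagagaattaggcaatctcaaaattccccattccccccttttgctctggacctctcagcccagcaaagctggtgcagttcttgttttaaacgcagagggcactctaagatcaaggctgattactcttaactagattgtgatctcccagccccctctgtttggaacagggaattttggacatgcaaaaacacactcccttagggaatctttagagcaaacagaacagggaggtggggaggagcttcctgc

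Both strands of the whole windows, which run to 50 bases after the start, were searched. The C1qc window holds the PU.1 core on the opposite strand at -195 to -188, a match found in 3.2% of all 32851 promoter windows. The C1qb window holds only the shorter core, at -53 to -47, which 9.35% of all windows hold. Of the 8 windows searched, 1 holds the PU.1 core and 2 the shorter core, and the Cfp window holds neither. The C1ra window holds a gamma-activated site, TTCNNNGAA, at 33 to 41 after the start, and 8.3% of all windows hold one. The Cd55 window holds TGCTGAC, part of the site bound by MAF factors, at -195 to -189 (4.67% of all windows). The interferon-stimulated response element (3.44% of all windows) and the NF-kB motif (0.411%) were matched in 0 of the 8 windows searched. C1qa, Cfb and Serping1 had no window, so none of these motifs was looked for in them.

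Serping1 on chromosome 2 (84765360 to 84775444) encodes the C1 inhibitor, which removes C1r and C1s from the complex. It was at 24.2, 24.0, 52.5 and 34.8 CPM in GPR35-positive replicates 1 to 4, against 343, 346, 408 and 497 CPM in GPR35-negative replicates 1 to 4. The log2 fold change was -3.56 ± 0.29 (edgeR adjusted p = 9.52e-05), lower in 4 of 4 animals, and -0.02 with scaling to the stromal markers. In log2 CPM, which is not scaled by gene length, Serping1 exceeded C1s1 by 0.98 ± 0.33 in GPR35-positive and 1.10 ± 0.37 in GPR35-negative libraries. That is a difference of -0.13 log2 between the populations (exact permutation p = 0.657, adjusted 0.657). Per kilobase, Serping1 was at 18.6 ± 7.38 and C1s1 at 5.83 ± 2.43 CPM in GPR35-positive libraries. In GPR35-negative libraries they were at 219 ± 39.7 and 61.6 ± 6.22 CPM per kilobase.

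Cd55 on chromosome 1 (130429798 to 130465009) had the largest difference of the 10 genes. It encodes decay-accelerating factor, which protects cells from complement on their own surface. It was at 2.71, 2.31, 8.97 and 11.4 CPM in GPR35-positive libraries, against 139.5, 251, 189 and 216 CPM in GPR35-negative libraries. The log2 fold change was -4.96 ± 0.57 (edgeR adjusted p = 0.00041), 31.2-fold lower in GPR35-positive cells and lower in 4 of 4 animals. Cd55 relative to Serping1 differed by -1.64 log2 between the populations (exact permutation p = 0.0286, the smallest possible, adjusted 0.0667), which does not pass after adjustment. It stayed lower with scaling to the stromal markers (-1.78, adjusted p = 0.0125). The adjacent copy Cd55b, with which 13.3% of the 50-base windows of the Cd55 transcript are shared, was at -5.01 ± 0.51 (edgeR adjusted p = 0.000234). An antisense gene overlaps part of Cd55, and its reads cannot be told apart either.

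Cfp, on chromosome X (20925454 to 20931555), encodes properdin, which stabilises the convertase of the alternative pathway. It was at 453, 528, 461 and 523 CPM in GPR35-positive libraries, against 321, 134, 64.5 and 100.3 CPM in GPR35-negative libraries. As for the C1q chains, the GPR35-positive values were close together and GPR35-negative replicate 1 was the highest of its group. The log2 fold change was 1.66 ± 0.44 (edgeR adjusted p = 0.017), higher in 4 of 4 animals, and -0.28 with scaling to the macrophage markers. The call ended without replicate 2 (1.59, edgeR adjusted p = 0.0848), without replicate 4 (1.47, 0.0953) and without GPR35-negative replicate 2 (1.61, 0.0536). The value was 2.34 without replicate 1 and 2.31 without GPR35-negative replicate 1. Cfp relative to C1qa differed by -0.28 log2, lower in 4 of 4 animals (exact permutation p = 0.0571, adjusted 0.1).

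C3 (chromosome 17, 57203967 to 57228136), the protein on which all pathways converge, and Cfb (chromosome 17, 34856374 to 34862514) did not pass the threshold. C3 was at 214, 101, 98.5 and 90.8 CPM in GPR35-positive libraries, against 94.7, 89.7, 81.8 and 74.9 CPM in GPR35-negative libraries. Cfb was at 163, 48.1, 38.1 and 38.5 CPM in GPR35-positive libraries, against 52.4, 37.7, 21.0 and 15.9 CPM in GPR35-negative libraries. For both genes GPR35-positive replicate 1 stood far above the other libraries and the populations overlapped. The log2 fold change of C3 was 0.56 ± 0.27 (edgeR adjusted p = 0.134), and 0.19 without GPR35-positive replicate 1. That of Cfb was 1.18 ± 0.56 (edgeR adjusted p = 0.128), and 0.39 without GPR35-positive replicate 1. Both were higher in the GPR35-positive library of 4 of 4 animals, and with the replicate block Cfb passed (1.03, adjusted p = 0.0142) whereas C3 did not (0.47, adjusted p = 0.103). Scaled to the macrophage markers both values were negative, at -1.80 for C3 (adjusted p = 0.00212) and -0.92 for Cfb (0.103). Cfb overlaps a longer gene annotated on its strand, whose reads cannot be told apart from its own.

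**Figure D3:**
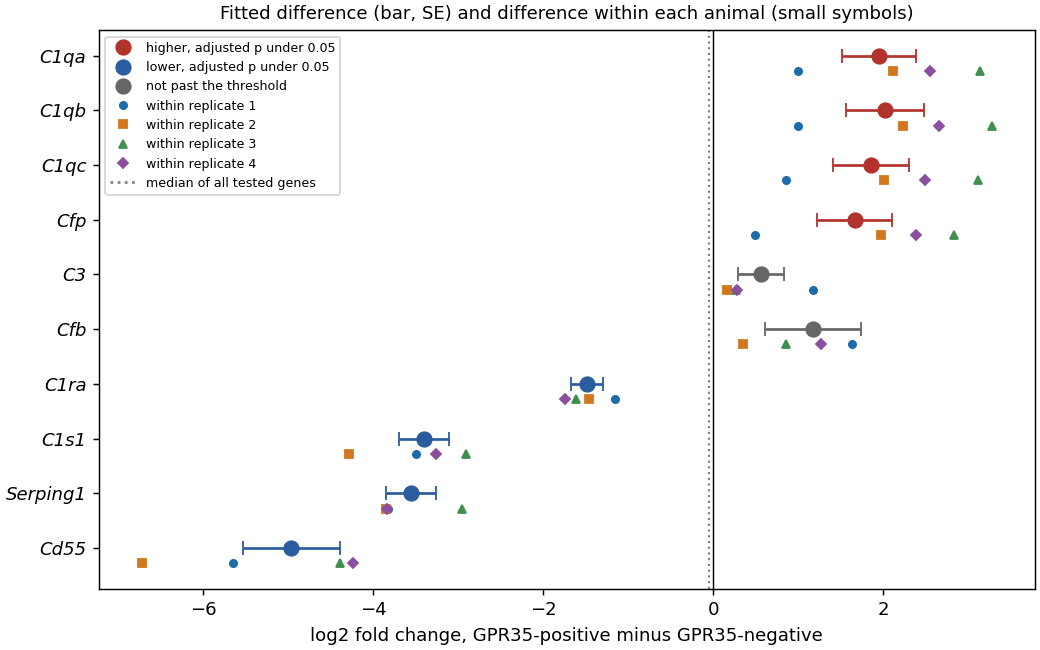
Log2 fold change of each gene, GPR35-positive minus GPR35-negative, with SE bars from the edgeR fit, and small symbols for the difference within each animal. The dotted line is the median of all tested genes, -0.05. The 4 genes past the threshold on the right are the C1q chains and Cfp, whose values are -0.28 to 0.09 when scaled to macrophage markers. The 4 on the left are C1ra, C1s1, Serping1 and Cd55, of which C1ra turns positive when scaled to stromal markers.

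Levels were also set beside those of the marker lists, as log2 CPM that is not scaled by gene length. The level of C1qa was above the mean of the macrophage markers by 1.63 ± 0.12 log2 in GPR35-positive and 1.63 ± 0.14 log2 in GPR35-negative libraries (SD, n = 4 each), although the markers themselves differed by 2.20 log2 between the populations. The differences between populations in this relative level were 0.09 for C1qb, -0.08 for C1qc and -0.28 for Cfp. The macrophage mean includes Cd163 (log2 fold change -1.50) and Mrc1 (0.71), the markers of that list that did not pass. How far these relative levels depend on them was not tested. C1s1 was at -0.51 ± 0.44 log2 relative to the stromal markers in GPR35-positive and -0.53 ± 0.59 in GPR35-negative libraries, and Serping1 at 0.46 ± 0.65 and 0.57 ± 0.36, while the stromal markers differed by -3.50 log2. C1ra, in contrast, was at 0.19 ± 0.92 log2 in GPR35-positive and -1.82 ± 0.34 log2 in GPR35-negative libraries relative to the stromal markers. Cd55 differed by -1.75 log2 relative to the stromal markers and by -0.29 log2 relative to the plasma and B cell markers. C3 and Cfb were between the lists, lower by -1.73 and -1.17 log2 relative to the macrophage markers and higher by 3.97 and 4.53 log2 relative to the stromal markers. C3 relative to the macrophage markers was lower in 3 of 4 animals, and so was Cfb.

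**Figure D4:**
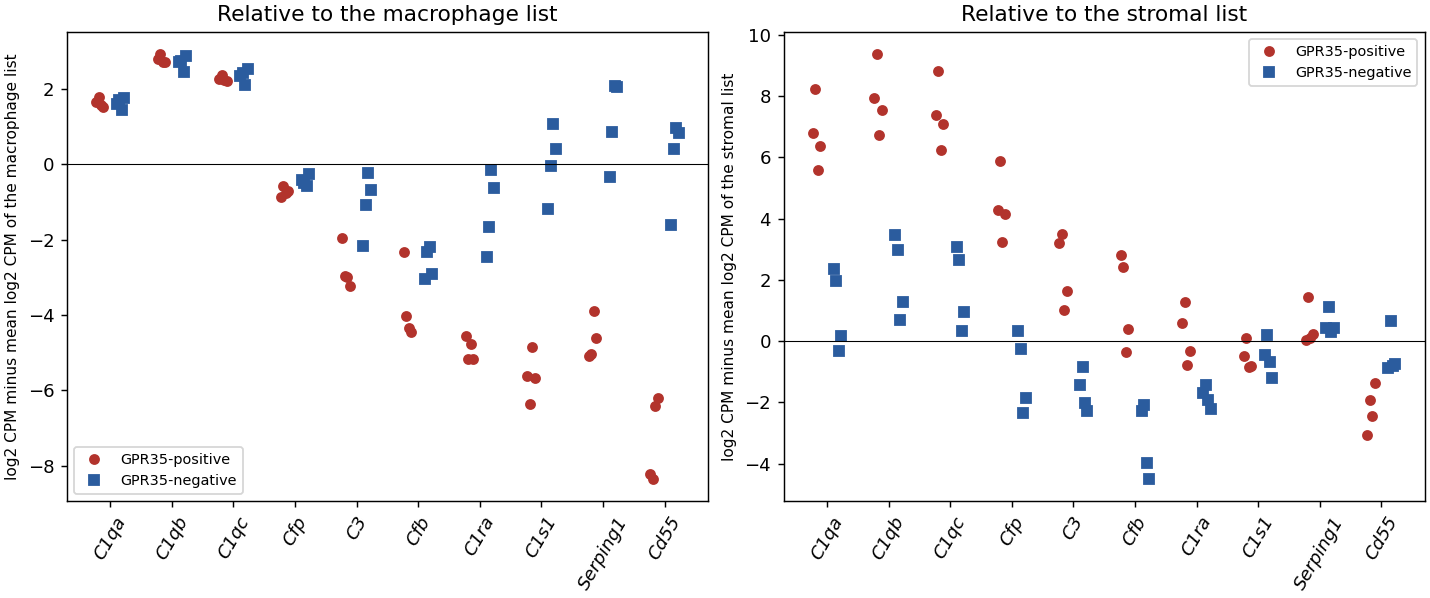
Log2 CPM of each gene minus the mean log2 CPM of the macrophage list (left) and of the stromal list (right), 1 point per library. The populations differ by -0.08 to 0.09 for the C1q chains on the left, and by 0.02 for C1s1 and -0.11 for Serping1 on the right.

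The genes most like 4 of these complement genes were found by the root-mean-square difference of mean-centred log2 CPM over the 8 libraries, among 9407 genes. The nearest to C1qa were C1qc (0.0584 log2), C1qb (0.062) and Pld4 (0.075), an endolysosomal nuclease of myeloid cells. The nearest to Cfp were Rab3il1 (0.118), Pstpip2 (0.119) and C1qc (0.127). The nearest to C1s1 were Sdc2 (0.183), Ccdc80 (0.21) and Cxcl12 (0.236), the chemokine of stromal cells. The nearest to Cfb were farther away: AW011738 (0.369), Vcam1 (0.388) and Bcl6 (0.404).

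Of 49 other complement genes on lists by role, 34 were tested, of which 7 were higher and 10 lower in GPR35-positive cells, or 50% against 38% over all tested genes. Receptors for complement fragments and C1q had 6 higher and 0 lower of 11 tested, with a median log2 fold change of 1.22 against -0.05 over all tested genes. Itgax and Itgam encode the alpha chains of the receptors for inactivated C3b. Itgax was at 427 ± 41.4 CPM in GPR35-positive and 7.42 ± 5.22 CPM in GPR35-negative libraries (5.85 ± 0.9999, edgeR adjusted p = 0.0025). Itgam was at 791 ± 142 CPM in GPR35-positive and 108 ± 123 CPM in GPR35-negative libraries (2.87 ± 0.68, edgeR adjusted p = 0.0109, and 4.09 without GPR35-negative replicate 1). With macrophage marker scaling Itgam was at 1.18 and still passed (edgeR adjusted p = 0.0197). Their shared beta chain Itgb2 was higher by 1.18 ± 0.18 log2, and below 0 with macrophage marker scaling (-1.13). C3ar1, the receptor for C3a, was at 1078 ± 126 CPM in GPR35-positive and 284 ± 214 CPM in GPR35-negative libraries (1.92 ± 0.49, edgeR adjusted p = 0.0147, 0.02 with macrophage marker scaling and 2.54 without GPR35-negative replicate 1). C5ar1, a receptor for C5a, was at 666 ± 61.3 CPM in GPR35-positive and 286 ± 252 CPM in GPR35-negative libraries and did not pass (1.22 ± 0.54, edgeR adjusted p = 0.103). Blocking on replicate made it pass (1.63, adjusted p = 0.0336), as did DESeq2 (1.19, 0.0429), limma voom (2.04, 0.00367) and leaving out GPR35-negative replicate 1 (2.01, 0.0031), and it was at -0.60 with macrophage marker scaling. Cd93 (0.81 ± 0.16) and Lrp1 (1.52 ± 0.40) were also higher, and both were below 0 with macrophage marker scaling (-1.56 and -0.60). Of the receptors that did not pass, Cr2 (-4.18 ± 1.49, edgeR adjusted p = 0.0537) and Calr (-0.30 ± 0.14, 0.107) were each lower in 3 of 4 animals. Both passed as lower with DESeq2 (-4.23 and -0.33, adjusted p = 0.024 and 0.0242), library-size scaling (0.0422 and 0.00656) and upper-quartile scaling (0.0464 and 0.0275). With limma voom Calr passed (-0.34, 0.0326) and Cr2 did not (-2.32, 0.447).

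Among genes that start the classical and lectin pathways 1 was higher and 3 lower of 7 tested, or 57.1% called against 38% over all tested genes, with a median of -1.91. Beside C1rb and C1s2, the remaining lower gene was Masp1, a protease of the lectin pathway, at 0.504 ± 0.279 CPM in GPR35-positive and 2.96 ± 1.71 CPM in GPR35-negative libraries (-2.54 ± 0.71, and 1.12 with stromal marker scaling), and the higher one was C1rl (1.27 ± 0.42), which turned negative with macrophage marker scaling (-0.90). Among later components 2 of 7 were lower and 0 higher, a share of 28.6% that is below the 38% over all tested genes, with a median of -2.17. C4b, which C1s cleaves, was at 19.96 ± 14.1 CPM in GPR35-positive and 182 ± 103 CPM in GPR35-negative libraries (-3.19 ± 0.60, and 0.15 with stromal marker scaling), and C4a, a near copy with which reads may be divided, at -3.22 ± 0.66 (0.03 with stromal marker scaling). Among other inhibitors 5 of 9 were lower and 0 higher, or 55.6%, with a median of -2.41. They included Cd55b, C4bp, Cr1l, the mouse membrane inhibitor Crry (68.3 ± 6.76 CPM in GPR35-positive and 117 ± 12.8 CPM in GPR35-negative libraries), Clu and Cd59a. With stromal marker scaling Cr1l was above 0 and passed (2.90), and C4bp lost its call (-2.14, adjusted p = 0.0784). Clu (1.39) and Cd59a (0.41) were then above 0 without passing. C1rl, C3ar1, Itgam, Lrp1, Clu, Cd59a and Masp1 each lost their call without replicate 4, which left 3 of these genes called higher. Without replicate 2, C1rl, C3ar1, Itgam and Clu lost theirs, which left 4 higher. Over the 12 fits that leave out 1 animal or library, C1rl lost its call in 10, Clu in 8, Cd59a and Masp1 in 7 each, and C3ar1, Itgam and Lrp1 in 2 each. C1rl also lost it with library-size (adjusted p = 0.0915) and upper-quartile scaling (0.0525), and Clu was at -1.48 without GPR35-negative replicate 3.

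**Figure D5:**
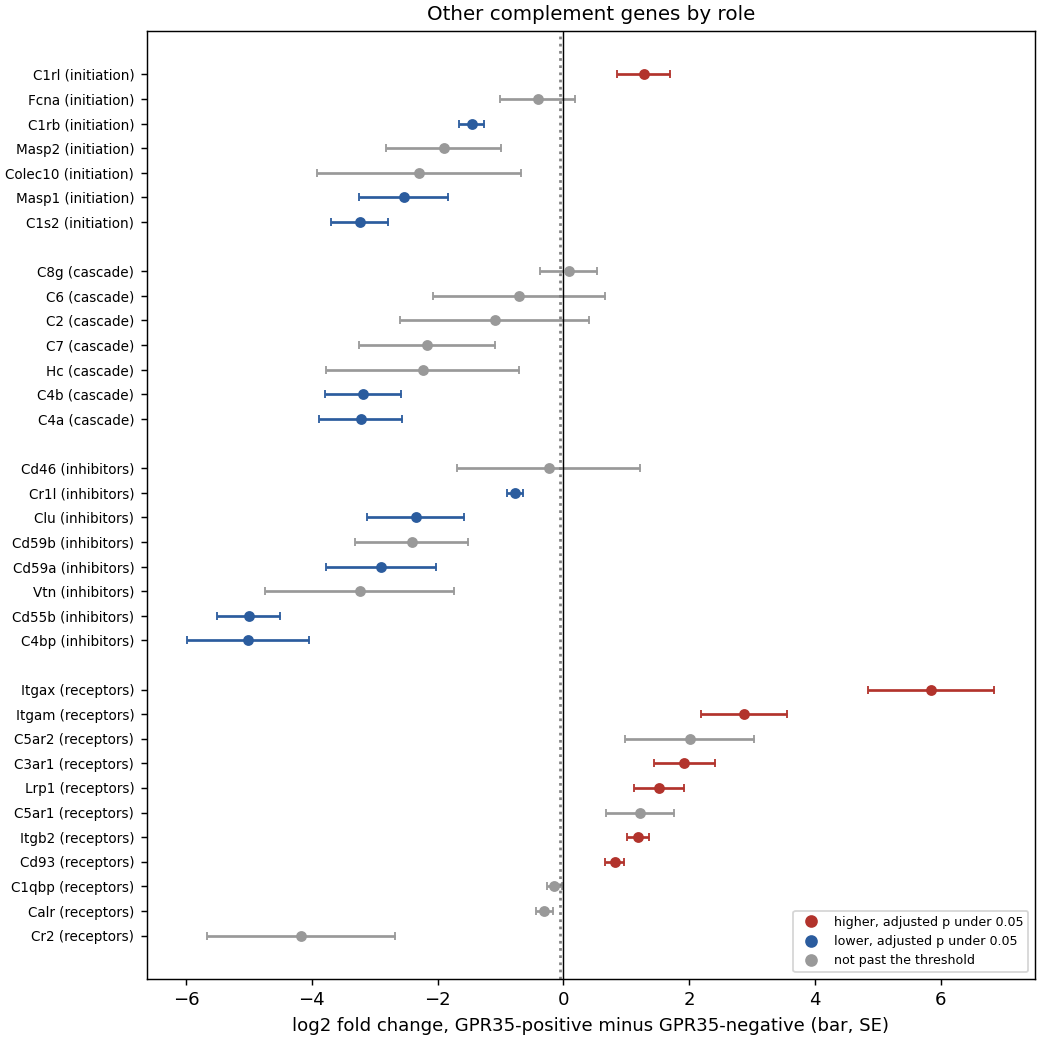
Log2 fold change with SE of other complement genes, grouped by role, GPR35-positive minus GPR35-negative; the dotted line is the median of all tested genes. Receptor genes hold 6 of the 7 higher calls, and inhibitors hold 5 of the 10 lower calls. Scaled to macrophage markers, Itgax and Itgam still pass as higher, whereas Itgb2, Cd93 and Lrp1 fall below 0, Lrp1 without passing the threshold. Scaled to stromal markers, Cr1l and C1rb pass as higher, and C4bp loses its call. Clu, Cd59a, C1s2, Masp1, C4a and C4b then lie above 0 without passing.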

How the data were processed

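Per the labels' protocols, epithelium was stripped from the gut with EDTA, the tissue digested, and the 2 populations sorted into Trizol; cDNA was made with SMART-Seq v4 and libraries with Nextera XT, which do not mark strand and use no molecular identifiers. Counts thus include PCR copies. The table deposited by the authors holds raw read counts per gene; per the submitters' processing notes, reads went through STAR (2.5.2a), with R (3.4.2) and mm10 also named, and the counting tool is not given in the sources used here. Of 14980 rows, 9 without a symbol (0.0179% of counts) were left out. The lowest of all rows' maxima over libraries was 18 counts, and 0.885 as CPM. Gene lengths are those deposited by the authors in the count table, and what they cover is not stated.

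Counts were tested with edgeR 4.0.16 (R 4.3.3): filterByExpr (minimum count 10, minimum total 15), TMM scaling, a robust quasi-likelihood F-test without a block, and Benjamini-Hochberg adjustment over 14184 genes. SE was computed as log2 fold change divided by the root of the F statistic. Log2 CPM used a prior count of 2. Marker scaling set effective library sizes to the geometric mean of a list's counts plus 0.5. Alternatives included DESeq2 1.42.0 and limma 3.58.1. The fit was tested on simulated counts with far fewer changed genes than were called here and no pairing by animal. That test does not check error rates for these data.

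Paired libraries come from 1 animal, as the labels give it. Their deviations from group means correlated across genes at 0.206, 0.206, 0.431 and 0.0637 in replicates 1 to 4. The highest correlation with a library of another animal was 0.104, 0.104, 0.237 and 0.237, which in replicate 4 exceeds that with its own partner. No replicates agreed within sampling noise (smallest chi-square per degree of freedom 25.5). Exact permutation tests over 70 arrangements of libraries were 2-sided and ignored the pairing by animal. Exact sign-flip p within animals was 0.125, the smallest possible, for every pair of genes except Serping1 and C1s1 (0.625). All 10 members and the marker genes Csf1r, Cd163, Mrc1 and Jchain are named, with other complement genes past the threshold and the 3 genes most like C1qa, Cfp, C1s1 and Cfb (mean of at least 3 log2 CPM). C5ar1, Cr2, Calr, Cd163, Mrc1 and Gbp2 were named after their values were seen. Not every gene counted in the lists is not reported here by name. Coordinates are from RefSeq, GRCm38.p6. The members and lists were chosen with earlier results of these data known.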

Additional observations from a re-analysis of the deposited data

Results flagged for a closer look

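In 54 sets of 4 libraries, 1 for each population of the 10 complement genes and of the 17 other complement genes past the threshold, 5 had a library far from the other 3, and chance gives about 1 in 20. C3 stood at 214 CPM and Cfb at 163 CPM in GPR35-positive replicate 1, above the other GPR35-positive libraries by 1.09 and 1.76 log2. Cr1l was at 78.4 CPM in GPR35-positive replicate 4, against 64.5 to 65.4 CPM in the others. Itgam was at 292 CPM in GPR35-negative replicate 1, against 34.4 to 66.8 CPM in the others, and that library was also the highest of its population for the C1q chains and Cfp. Lrp1 was at 164 CPM in GPR35-positive replicate 2, against 239 to 251 CPM in the others.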

How the results depend on the processing

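With RLE, upper-quartile or library-size scaling, no count filter, a filter of 5 CPM in 4 libraries, DESeq2, limma voom and no robust estimation, the 10 complement genes gave 4 higher and 4 lower, as in the fit reported. The replicate block changed the call of Cfb and of no other of the 10, giving 5 higher and 4 lower, and other complement genes were 8 higher and 11 lower with it. Scaling to macrophage markers gave 0 higher and 5 lower, with values below 0 for C1qa (-0.0019), C1qc (-0.085), C3 (-1.80), Cfb (-0.92) and Cfp (-0.28), and, with the replicate block, also 0 higher, at -0.00044, -0.078, -1.79, -1.22 and -0.28. Other complement genes were then 2 higher, Itgax and Itgam, and 24 lower, or 21 lower with the block. Scaling to stromal markers gave 7 higher and 1 lower, other complement genes 18 higher and 1 lower, and C1ra above 0 (2.20). With stromal scaling and the replicate block, chosen after seeing the data, the counts were again 7, 1, 18 and 1, with C1ra at 2.02 and C1s1 at 0.016. All genes past the threshold numbered 5386 (2617 higher, 2769 lower), 1692 higher and 4193 lower with library-size scaling, 11959 (93 higher, 11866 lower) with macrophage and 12036 (11945 higher, 91 lower) with stromal scaling, and with the block added 10977 (113 higher, 10864 lower) and 12074 (11970 higher, 104 lower). These scalings make every other gene relative to the list, by construction.

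Leaving out 1 animal or library gave 3284 to 5966 genes past the threshold (1572 to 2931 higher, 1680 to 3035 lower), lowest without replicate 3 (3284) and replicate 4 (3304). It gave 0 to 4 complement members higher, 0 without replicate 2 and 0 without replicate 4, and 4 lower in every case; other complement genes were 3 to 10 higher and 7 to 12 lower. The 4 libraries per population limit the precision, and intervals from counts would cover counting error only.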

Other observations

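GPR35-positive replicate 1, where C3 and Cfb were high, had 27 of 9407 genes at least 2-fold above each of the other GPR35-positive libraries. By the same rule replicates 2, 3 and 4 had 3, 74 and 0 genes. GPR35-negative replicates 1 to 4 had 285, 30, 47 and 14 within their own population. Of the 27 genes, 8 were interferon-inducible GTPases, a family that defends cells against intracellular microbes, out of 16 such genes among the 9407, from a list of 19 written after these values were seen. All 19 were highest of the GPR35-positive libraries in replicate 1. Their mean was 5.98 log2 CPM there, against 4.67 to 4.88 in the other GPR35-positive libraries. In the GPR35-negative libraries the mean was 5.27 in replicate 1 of the same animal and 3.74 to 4.70 in the others. GPR35-negative replicate 1 also had the highest macrophage marker mean of its population, 8.75 log2 CPM against 6.59 to 7.57 in the others. How far its GTPase mean follows that level was not tested. Gbp2 was at 166 CPM in GPR35-positive replicate 1 and 70.8 to 72.7 CPM in the other GPR35-positive libraries. Cfb was in the same animal the highest of both populations. These values are a description of 1 animal and were not tested.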
